A study of Mus musculus with 18 samples.

Results

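Bone marrow-derived macrophages (BMDMs) from mice lacking histone deacetylase 3 (HDAC3) in myeloid cells were compared with control macrophages after both had been given live, non-apoptotic cells (NACs), by RNA-seq. The 6 libraries titled HDAC3 KO-NAC (3) and WT-NAC (3) were taken, of 18 in the series. The KO mice (M-HDAC3-/-) carried loxP sites around an exon of Hdac3 and a Cre recombinase driven by the lysozyme 2 locus (Lyz2), which is active in macrophages, granulocytes and some monocytes from early in their development. The WT group is named HDAC3 f/f in the study. The NACs were K562 cells, a human leukemia line grown in suspension, that had not been exposed to UVB. They were added for 45 min and washed off, and the macrophages were kept for a further 5 h. The other libraries were from untreated BMDMs and from BMDMs given UVB-exposed apoptotic K562 cells (ACs), with both genotypes and 3 libraries in each group. No age or sex was given in the labels.

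HDAC3 removes acetyl groups from histone tails, mostly as the enzyme of corepressor complexes with NCoR1, TBL1X, TBL1XR1 and GPS2, which nuclear receptors and other transcription factors bring to DNA. In macrophages these complexes are known for restraining and for permitting different inflammatory programs, and the type I interferon program is among those that depend on HDAC3. The comparison with NACs asks how the genotypes differ when macrophages meet cells that carry no apoptotic signal, and it is the control for efferocytosis, the uptake of apoptotic cells.

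The NAC libraries held between 9431435 and 20621976 counts on genes. All 15 macrophage markers were detected, with summed levels of 36543 to 50414 CPM, which are counts scaled to a common library total, in WT-NAC and 33634 to 48825 CPM in KO-NAC. Hdac3, the targeted gene, was measured at 47.3, 44.0 and 11.4 CPM in WT-NAC libraries 1, 2 and 3 and 4.79, 33.2 and 43.1 CPM in KO-NAC libraries 1, 2 and 3. The groups overlapped, so the transcript did not separate the genotypes (log2 fold change -0.34 ± 0.95, edgeR quasi-likelihood adjusted p = 0.836; two-sided exact permutation test p = 0.500, where 3 libraries against 3 cannot go below 0.10). The counts are for whole genes, so reads from outside the deleted exon would be counted in both genotypes. Lyz2, whose locus carries the Cre, was measured at 3574, 6392 and 1859 CPM in WT-NAC and 13220.0, 5003 and 8922 CPM in KO-NAC. The groups overlapped and the difference did not pass (log2 fold change 1.20 ± 0.46, edgeR adjusted p = 0.144). With ACs Lyz2 was at 3872 ± 1318 CPM in WT and 6895 ± 3268 CPM in KO (SD, n = 3). In untreated libraries Lyz2 had the opposite order, with 8356 ± 4845 CPM in WT and 2376 ± 822 CPM in KO. That difference passed (log2 fold change -1.94 ± 0.55, edgeR adjusted p = 0.0425). The genotype difference with NACs minus that in untreated libraries was 3.39 for Lyz2, and it passed as well (edgeR adjusted p = 0.00285). The order of the labelled genotypes at the locus of the Cre was thus not the same across treatments. The Hdac3 ranges overlapped in the other treatments too, at 3.38 to 44.4 CPM in WT and 11.4 to 74.6 CPM in KO untreated libraries and 7.13 to 38.3 CPM and 10.1 to 39.8 CPM with ACs, so the Hdac3 transcript did not check the labels there either. The genotypes below are therefore those of the labels, and a direction is that of libraries labelled KO against libraries labelled WT.

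The libraries of a group were not alike. On the first principal component, which held 53.9% of the variance, WT-NAC libraries 1 and 3 stood at -73.6 and -53.2, whereas WT-NAC library 2 stood at 7.56 beside KO-NAC library 2 at 17.5. Across 11923 genes, WT-NAC libraries 1 and 3 correlated more closely with the mean of the untreated KO libraries (Pearson r = 0.981 and 0.978) than with that of the untreated WT libraries (0.914 and 0.915). All 3 KO-NAC libraries were closer to untreated WT (0.979 to 0.982) than to untreated KO (0.911 to 0.948), and so was WT-NAC library 2 (0.976 against 0.950). Without untreated KO library 1 the correlations of WT-NAC libraries 1 and 3 with untreated KO were 0.964 and 0.965, which left the order as it was. With the means of the AC libraries the order was another, and every NAC library was closer to WT than to KO. For WT-NAC libraries 1 and 3 the correlations were 0.959 and 0.967 with WT and 0.923 and 0.934 with KO. For the KO-NAC libraries they were 0.958 to 0.985 with WT and 0.938 to 0.956 with KO. These correlations are across genes, which are not independent, and the libraries also shared features such as base composition.

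With NACs, macrophages labelled KO had higher levels of a part of the interferon-inducible genes (23 in the lists used here). Most of the 23 stood in a list written after the values had been seen. Levels of the endosomal Toll-like receptors Tlr7 and Tlr8 and of catalase (Cat) were higher too. Lower levels were found for a group of neural crest and neuronal transcripts and for transcripts such as S100a6, Crip1 and Gdf3. Of the small structural RNAs, 6 of the 13 tested were lower by the test described next. Of 11923 genes tested, 103 (0.864%) had an adjusted p under 0.05 by the quasi-likelihood test of edgeR, with p-values adjusted over all genes by the Benjamini-Hochberg method. Of these, 64 (0.537%) were higher and 39 (0.327%) lower in KO. At these shares most short lists would hold no call, so a list without a call says little about its members. Groups that did not overlap were far more common than calls. They were found with KO higher for 14.8% and with KO lower for 12.2% of the genes tested. The median absolute log2 fold change was 1.78 among the genes called higher, 2.08 among those called lower and 0.55 among all genes tested. The calls rested on single libraries. Without WT-NAC library 1 no gene was called (1652 had an unadjusted p under 0.05), without WT-NAC library 3 there were 15 and without KO-NAC library 2 there were 39, whereas without WT-NAC library 2 there were 3121 and without KO-NAC library 3 there were 169. Correction of each library for the GC content and length of genes (called the offset below) also left no call, with 1920 genes at an unadjusted p under 0.05, while DESeq2's Wald test made 441 calls. Scaling by library totals alone left 12 higher and 4 lower, and moved the median of all genes to 0.31. In these bulk samples, fewer cells of a type and less RNA per cell cannot be told apart.

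**Figure D1:**
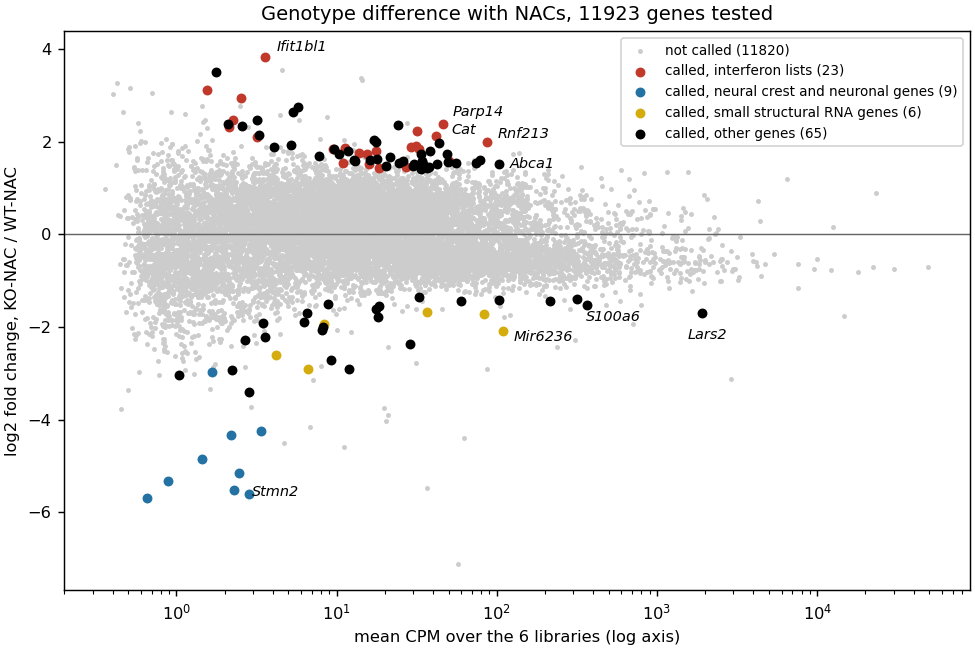
Log2 fold change of KO-NAC over WT-NAC against mean CPM over the 6 libraries (log axis), 1 point per gene tested. The 64 genes called higher include 23 of the interferon lists (red), and the 39 called lower include 9 neural crest and neuronal genes (blue) and 6 small structural RNA genes (yellow).

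Of the gene lists used here, the interferon lists held the most of the genes called higher. Type I interferon binds its receptor and activates transcription factors that include STAT2 and IRF9, which bind interferon-stimulated response elements and raise a set of antiviral genes. Of the 25 members of an interferon response list, 5 were called higher and none lower, 14 did not overlap between groups with KO higher and none with KO lower, and the median log2 fold change was 1.23, against -0.003 over all genes tested. The 5 were Stat2, Mx1, Mx2, Ifit2 and Ddx58. A wider list of interferon-inducible gene families (Ifi200, Ifit, Gbp, Irgm, Slfn, Trim30, Parp and others) was written after the values had been seen. Of its 87 genes 66 were tested, 21 were called higher and none lower, and their median was 1.21. Together the 2 lists held 23 of the 64 genes called higher (35.9%), and 41 were in neither list. Since the wider list was written with the calls known, this share and its median describe the calls and do not test them. The medians stayed above those of all genes in every leave-one-out fit (1.04 to 1.71 for the first list) and with the offset (0.89 and 0.91).

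Stat2, a signal transducer that acts with IRF9, lies at chr10:128270576-128292849 (GRCm38) and was measured at 12.0, 17.6 and 13.0 CPM in WT-NAC libraries 1, 2 and 3 and 66.5, 32.8 and 54.6 CPM in KO-NAC libraries 1, 2 and 3. Every KO library lay above every WT library (log2 fold change 1.85 ± 0.35 SE, n = 3 per group, edgeR quasi-likelihood adjusted p = 0.00897). Ifit2, which binds viral RNA and limits translation, had 8.60, 19.6 and 5.39 CPM in WT-NAC and 73.1, 33.0 and 51.8 CPM in KO-NAC (2.23 ± 0.43, edgeR adjusted p = 0.0197). Mx1, a dynamin-like GTPase that blocks influenza viruses, had 5.77, 6.03 and 2.76 CPM in WT-NAC and 19, 11.6 and 22.2 CPM in KO-NAC (1.87 ± 0.40, edgeR adjusted p = 0.0244). The groups did not overlap for either gene, and WT-NAC library 2 was the highest of the WT libraries for both. Ddx58, which encodes the RNA sensor RIG-I, and Mx2 had log2 fold changes of 1.53 and 2.10 (adjusted p = 0.0443 and 0.0443, edgeR).

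Parp14 (chr16:35832874-35871544), a mono-ADP-ribosyltransferase, had 13.1, 20.9 and 10.3 CPM in WT-NAC libraries 1, 2 and 3 and 119, 45.9 and 67.6 CPM in KO-NAC libraries 1, 2 and 3. Its log2 fold change was 2.40 ± 0.38 (edgeR adjusted p = 0.00541), without overlap between the groups. Its neighbours on chromosome 16, Parp9 (1.88, adjusted p = 0.0186) and Dtx3l (1.44, adjusted p = 0.0443), whose proteins act together as a ubiquitin ligase, were called higher as well by edgeR. Rnf213, a giant ubiquitin ligase of antimicrobial defence, had 26.0, 43.5 and 34.8 CPM in WT-NAC and 197, 80.7 and 138 CPM in KO-NAC (1.99 ± 0.36, edgeR adjusted p = 0.00858). Cmpk2, a mitochondrial nucleotide kinase next to Rsad2 in the genome, had 14.4, 21.8 and 10.3 CPM in WT-NAC and 106, 40.0 and 57.3 CPM in KO-NAC (2.13 ± 0.38, edgeR adjusted p = 0.00858). No KO library overlapped the WT libraries for these genes, and KO-NAC library 1 was the highest and KO-NAC library 2 the lowest of the KO group for Parp14, Rnf213 and Cmpk2.

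Members of multigene families followed. In the Ifi200 cluster on chromosome 1, whose proteins include sensors of DNA, Ifi207 (1.91), Ifi213 (2.95), Ifi203 (1.55) and Ifi211 (1.46) were called higher. Of the schlafen genes on chromosome 11, Slfn5 (1.59), Slfn8 (1.80) and Slfn3 (2.32) were called higher, as were the interferon-induced GTPase genes Gbp5 (2.46) and Irgm2 (1.75), the TRIM genes Trim30c (3.12) and Trim34a (1.84), the antiviral gene Samd9l (1.74) and Ifit1bl1 (3.84). Their edgeR adjusted p values ran from 0.00858 for Ifit1bl1 to 0.0474 for Slfn3. Several of these genes have near-identical copies, so reads may be split between them and the values of single copies are uncertain. Ifi213, Trim30c, Gbp5, Slfn3 and Ifit1bl1 were below 1 CPM in every WT-NAC library.

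Not every interferon gene had a positive fold change. The members with the highest levels, Bst2 (-0.99, adjusted p = 0.145), Oas1a (-0.47, 0.388) and Irf7 (-0.93, 0.145), had negative values that did not pass the test in edgeR. The summed level of the 25 genes, in which these members weigh most, was 2841, 1582 and 1826 CPM in WT-NAC libraries 1, 2 and 3 and 1646, 2013 and 1804 CPM in KO-NAC libraries 1, 2 and 3, with overlap. That of the wider list was 12243, 6163 and 6772 CPM in WT-NAC and 6029, 7199.8 and 4921 CPM in KO-NAC, also with overlap. Ifit1 (1.67, 0.0711), Ifit3 (1.6, 0.0621) and Rsad2 (1.44, 0.0605) had positive values that did not pass.

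**Figure D2:**
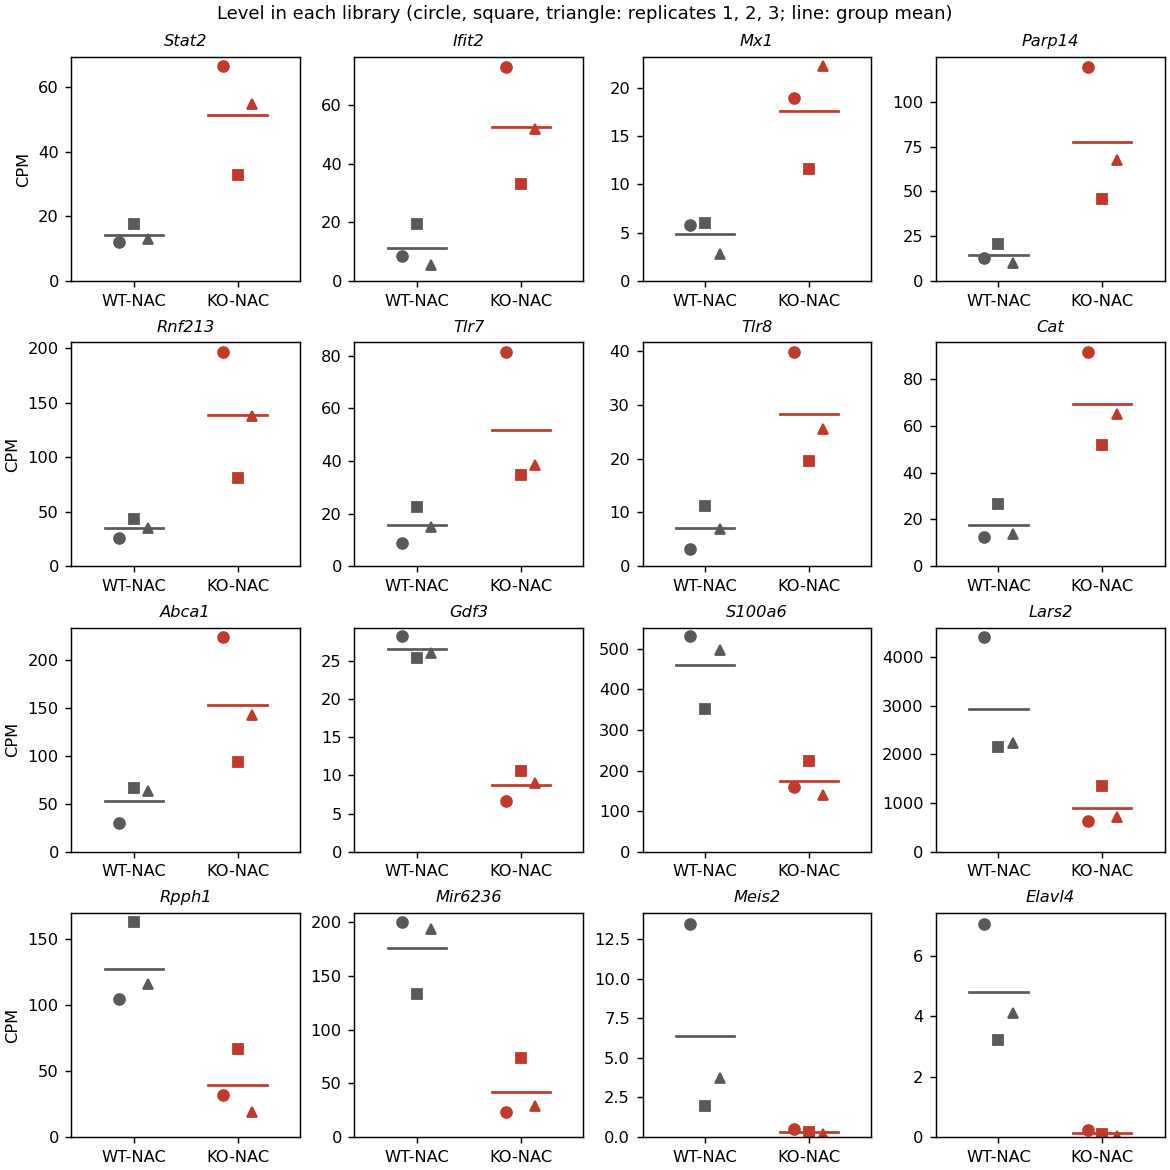
CPM (linear axis from 0) of 16 called genes in each of the 6 libraries, WT-NAC in grey and KO-NAC in red. Symbols mark replicates 1, 2 and 3 and lines the group means. The groups do not overlap in any panel, and WT-NAC library 2 (grey square) is the WT library nearest to KO for Stat2, Ifit2, Parp14 and Cat.

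Promoters of 4 of the called interferon genes are shown as examples that hold the motif described here, which not every such gene did. Each is the 250 bases before the RefSeq start site on GRCm38.p6, written 5′ to 3′ on the strand of the gene. Capitals mark matches, on either strand, to a core of the interferon-stimulated response element, GAAA followed after any 2 bases by GAAA (TTTC, 2 bases and TTTC on the other strand).
Stat2, chr10:128270248-128270497, plus strand: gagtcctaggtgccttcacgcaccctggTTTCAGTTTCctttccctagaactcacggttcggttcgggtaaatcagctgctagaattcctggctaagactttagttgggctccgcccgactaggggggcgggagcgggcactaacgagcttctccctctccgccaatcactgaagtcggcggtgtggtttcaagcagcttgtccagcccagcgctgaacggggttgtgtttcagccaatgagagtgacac
Ifi213, chr1:173599273-173599522, minus strand: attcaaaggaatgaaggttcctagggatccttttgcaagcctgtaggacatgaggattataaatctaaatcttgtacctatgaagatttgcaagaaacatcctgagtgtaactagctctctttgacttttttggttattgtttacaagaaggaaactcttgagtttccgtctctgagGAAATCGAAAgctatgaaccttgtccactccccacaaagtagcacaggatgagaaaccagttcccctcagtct
Slfn5, chr11:82951852-82952101, plus strand: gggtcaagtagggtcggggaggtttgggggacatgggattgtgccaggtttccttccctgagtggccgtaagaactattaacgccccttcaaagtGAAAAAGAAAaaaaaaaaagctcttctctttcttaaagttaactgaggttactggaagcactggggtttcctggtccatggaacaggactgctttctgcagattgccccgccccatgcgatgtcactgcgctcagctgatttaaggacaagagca
Gbp5, chr3:142496684-142496933, plus strand: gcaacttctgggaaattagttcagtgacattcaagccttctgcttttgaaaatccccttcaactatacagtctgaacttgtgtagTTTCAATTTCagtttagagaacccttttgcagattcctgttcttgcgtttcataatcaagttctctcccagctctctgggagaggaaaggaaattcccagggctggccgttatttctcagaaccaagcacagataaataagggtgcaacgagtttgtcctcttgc

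The match began 222 bases before the start site in Stat2, 73 in Ifi213, 155 in Slfn5 and 165 in Gbp5. Windows of 49 of the 64 genes called higher could be matched by symbol, and 12 of them (24.5%) held the motif. Of these 12, 10 belonged to the interferon lists, and the other two were Ldlrad3 and Ncoa4. The share was 3.46% of 27025 genes with a window of this length and 0 of 22 for the genes called lower. Among the interferon genes it was 52.6% of the 19 called genes with a window and 64.3% of the 42 genes with a window that were tested and not called. A match is a description of the letters in the window, and binding was not measured here.

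Toll-like receptors sense microbial lipids at the cell surface and nucleic acids in endosomes. Of 21 members of their pathway that were tested, 3 were called higher and none lower, with a median log2 fold change of 0.59 (0.57 with the offset). Tlr8 had 3.27, 11.1 and 6.86 CPM in WT-NAC and 39.8, 19.5 and 25.5 CPM in KO-NAC (1.99 ± 0.41, edgeR adjusted p = 0.0218). Tlr7, the receptor for single-stranded RNA beside it on the X chromosome, had 9.03, 22.7 and 14.9 CPM in WT-NAC and 81.4, 34.9 and 38.7 CPM in KO-NAC (1.73 ± 0.39, edgeR adjusted p = 0.0433). Tlr4, the receptor for lipopolysaccharide, had 6.20, 13.0 and 7.04 CPM in WT-NAC and 41.0, 19.8 and 20.3 CPM in KO-NAC (1.63 ± 0.39, edgeR adjusted p = 0.0443). The groups did not overlap for any of the 3, and KO-NAC library 1 was the highest. The coreceptor Cd14 had a value of -1.01 (adjusted p = 0.139) and the adaptor Myd88 one of -0.12 (0.814), so neither passed in edgeR. Among 17 inflammatory cytokines and enzymes tested none was called, and Il1b (2.01, 0.102), Cxcl2 (1.70, 0.0539) and Tnf (-0.16, 0.752) did not pass.

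The other genes called higher served several functions. Cat, which breaks down hydrogen peroxide, had 12.4, 26.5 and 13.7 CPM in WT-NAC and 91.6, 51.6 and 65.1 CPM in KO-NAC (1.98 ± 0.36, edgeR adjusted p = 0.00858). It was the 1 member of 23 oxidative stress and iron genes that was called. Abca1, the cholesterol efflux pump and a target of liver X receptors (LXR), had 30.1, 66.6 and 63.0 CPM in WT-NAC and 224, 93.1 and 142 CPM in KO-NAC (1.52 ± 0.37, edgeR adjusted p = 0.0466). The groups did not overlap for Abca1, although KO-NAC library 2 was close to WT-NAC libraries 2 and 3. In the other lists the called members were Xiap (1.59), an inhibitor of caspases, Adam17 (1.53), the protease that sheds tumor necrosis factor from the membrane, Bach1 (1.54), a heme-responsive repressor, and the nuclear noncoding RNA Firre (1.88), each as the 1 called gene of its list (27, 18, 22 and 7 tested). The 15 genes called higher with the largest folds, among those with a mean of at least 5 CPM, included Ldlrad3 (2.65), Clec5a (1.94) and Mefv (1.85). Ldlrad3 is a membrane protein of the LDL receptor family, Clec5a a myeloid lectin receptor, and Mefv encodes the inflammasome sensor pyrin. They also included 9930111J21Rik2 (2.75), Gm8995 (2.37) and Gm5431 (2.04). From Xiap to Gm5431, the edgeR adjusted p values of the genes named ran from 0.00541 for Gm8995 to 0.0473 for Firre. Notch1 (1.51, adjusted p = 0.0280) and the integrin genes Itgal (1.56, 0.0474) and Itga6 (1.45, 0.0443) were also called by edgeR, and are named here after their values were seen.

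Among the genes called lower, the largest folds belonged to transcription factors and structural proteins of neural crest derivatives and neurons. A list of 26 such genes was written after the values had been seen, so that its direction is a description. Of 11 that were tested 9 were called lower, among them Nefm, Hand2, Stmn2, Elavl4, Six3, Twist1, Meis2 and Gata2. Elavl4, a neuronal RNA-binding protein, had 65, 42 and 67 counts in WT-NAC libraries 1, 2 and 3 and 5, 1 and 1 counts in KO-NAC libraries 1, 2 and 3 (-5.16 ± 0.71, edgeR adjusted p = 7.69e-04). Meis2, a homeobox transcription factor, had 124, 26 and 61 counts against 11, 3 and 4 (-4.25 ± 0.72, edgeR adjusted p = 0.00858). Hand2, a factor of sympathetic neurons and heart, had 123, 16 and 35 counts against 5, 0 and 1 (-5.61 ± 1.12, edgeR adjusted p = 0.0455). These levels were low in every library, and with so few counts in KO-NAC the size of these folds is uncertain. For Hand2 the log2 fold change was -7.26 to -3.89 when each library was left out. WT-NAC library 1 held the most counts for Meis2 and Hand2, and KO-NAC libraries 2 and 3 held under 10 counts for all 3 genes.

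The summed level of the 26 genes was 24.6 to 87.2 CPM in WT-NAC and 3.26 to 4.08 CPM in KO-NAC, and 4 and 9 of them were at 0 in all libraries of the group. Untreated libraries had the opposite order, with 5.95 to 11.2 CPM in WT and 16.2 to 37.7 CPM in KO. The median log2 fold change of the tested members with NACs was -4.86, and -4.75 with the offset. Th, the enzyme that defines catecholamine neurons, was at 0 in all 6 NAC libraries, and Prph and Chga, other markers of peripheral neurons, had at most 3 counts in any of them.

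Small structural RNAs, whose transcripts work without being translated, formed another group among the genes called lower. The list of these genes was also written after the values had been seen. Of its 13 members tested 6 were called lower and none higher, with a median log2 fold change of -1.68 that became -0.62 with the offset. Rpph1, the RNA of ribonuclease P, which trims transfer RNA precursors, had 104, 163 and 116 CPM in WT-NAC and 31.9, 66.4 and 19 CPM in KO-NAC (-1.71 ± 0.39, edgeR adjusted p = 0.0443). Rmrp, the RNA of a related ribonuclease, had 19.4, 9.24 and 11.1 CPM in WT-NAC and 2.06, 6.31 and 2.34 CPM in KO-NAC (-1.92 ± 0.45, edgeR adjusted p = 0.0443). Mir6236, annotated as a microRNA, had 199.8, 133 and 194 CPM in WT-NAC and 22.8, 73.8 and 28.7 CPM in KO-NAC (-2.08 ± 0.40, edgeR adjusted p = 0.0138). The groups did not overlap for the 3 genes, and KO-NAC library 2 was the highest of the KO group. Gm24187, Gm22513 and Gm24265 were the other members called. With the offset the log2 fold changes were -0.49 for Rpph1, -0.63 for Rmrp and -0.94 for Mir6236, and Gm24187 turned from -1.68 to 0.20. As a share of all counts, small RNA genes took 0.900%, 0.407% and 0.257% in WT-NAC libraries 1, 2 and 3 and 0.0265%, 0.0571% and 0.223% in KO-NAC libraries 1, 2 and 3, and long noncoding RNAs took 2.79% to 4.16% and 1.25% to 2.23%. The part of the RNA input and its handling in these shares was not tested.

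Genes annotated as protein-coding and called lower included Lars2, the mitochondrial leucyl-tRNA synthetase, which was the most abundant of them. It had 4416, 2147 and 2238 CPM in WT-NAC and 637, 1343 and 718 CPM in KO-NAC (-1.71 ± 0.41, edgeR adjusted p = 0.0443). As for Mir6236, KO-NAC library 2 was the highest of the KO group. Both genes spread widely among untreated KO libraries, at 1168 to 10896 CPM for Lars2 and 71.8 to 824 CPM for Mir6236. Counts are for whole genes, and where in Lars2 the reads lay was not analysed, so its level need not be that of the synthetase transcript. Gdf3, a ligand of the TGF-beta family made by macrophages, had 28.3, 25.3 and 26.0 CPM in WT-NAC and 6.61, 10.6 and 8.94 CPM in KO-NAC (-1.61 ± 0.34, edgeR adjusted p = 0.0251). The WT values of Gdf3 lay close together and well above those of KO. F7 (-2.06), coagulation factor VII, Itgb7 (-1.78), an integrin of gut homing, Chpf (-2.0), an enzyme of chondroitin synthesis, Spry2 (-1.70), an inhibitor of receptor tyrosine kinase signals, Rgs9 (-2.90), a regulator of G proteins, and Ak8 (-1.90), an adenylate kinase, were called lower with edgeR adjusted p values between 0.0200 for F7 and 0.0463 for Spry2. S100a6, a calcium-binding protein named here after its values were seen, had 532, 351 and 498 CPM in WT-NAC and 159.9, 224 and 139 CPM in KO-NAC (-1.40 ± 0.35, edgeR adjusted p = 0.0474). Crip1, a small LIM protein that was also named afterwards, had a value of -1.44. The antisense genes Gm4673 (-2.36) and Gm15564 (-2.71) were called lower too. Gm15564 overlaps Parp9, which was called higher, on the opposite strand over 5854 bases, and since the strand setting of the counting is not given in the sources used here, reads from the overlap cannot be told apart.

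The genes that the study chose for efferocytosis were not among the calls. Of 24 tested, none was called higher or lower, and the median log2 fold change was -0.03. Since 0.864% of all genes tested were called, no call among 24 is near that share and is not a trait of these genes. In the list 2 genes were higher and 3 lower in KO without overlap between groups. Since the list was chosen by the study on libraries of the same series, it is not independent evidence of a direction. Cd5l, a secreted scavenger protein that macrophages make under LXR control, had 272, 169.8 and 108 CPM in WT-NAC and 40.1, 140.4 and 169 CPM in KO-NAC, with overlap (-0.65 ± 0.46, edgeR adjusted p = 0.369). Mfge8, which bridges phosphatidylserine to integrins, had the lowest value of the list (-1.93, adjusted p = 0.0573), and Marco, a scavenger receptor, the highest (2.48, 0.115). The receptors Mertk (0.05, 0.931), Axl (0.24, 0.663), Lrp1 (0.71, 0.206) and Cd36 (0.93, 0.191) did not pass in edgeR. Among 25 LXR and PPAR targets tested, Abca1 was the 1 called, and Abcg1 (0.22), Apoe (0.90) and Srebf1 (-0.47) did not pass (adjusted p = 0.652, 0.215 and 0.341).

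The partners of HDAC3 were measured as well. None of the 6 genes of the corepressor complex list, which holds Hdac3 itself, was called. Of the partners, Ncor1 (0.06), Tbl1x (0.99), Tbl1xr1 (0.79) and Gps2 (-0.90) lay on both sides of 0. None of 10 other zinc-dependent deacetylases was called (median -0.34). Macrophage identity genes were measured on both sides of 0 also, with no calls among 15 and a median of -0.12. Adgre1, which encodes F4/80 (1.04, adjusted p = 0.121), and Mrc1 (1.13, 0.0965) had higher and Cd14 (-1.01, 0.139) lower values in KO without overlap between groups, and none passed in edgeR.

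Large gene families held few calls but shifted medians. The 78 nuclear genes of the respiratory chain had a median log2 fold change of -0.53, with 32 lower in KO without overlap, none higher without overlap and no call, where 12.2% of all genes tested were lower and 14.8% higher without overlap. The 9 mitochondrial genes of the chain that were tested had a median of 0.23 (0.27 with the offset) and no call. Mitochondrial genes took 0.325%, 0.404% and 0.294% of counts in WT-NAC libraries 1, 2 and 3 and 0.577%, 0.409% and 0.452% in KO-NAC libraries 1, 2 and 3, without overlap, and the part of RNA quality in these values was not tested. The 88 cytosolic ribosomal protein genes had a median of -0.41 and the 33 clustered histone genes one of -1.24, also with no call. In contrast, 267 zinc finger (Zfp) genes had a median of 0.47, with 78 higher and 18 lower in KO without overlap and 1 call, Zfp771, which was lower (-1.45, edgeR adjusted p = 0.0445). With the offset the medians of the nuclear respiratory chain, ribosomal protein, histone and Zfp genes became -0.20, -0.12, -0.58 and 0.28 in the same order. With library totals alone, which moved the median of all genes as given above, they were -0.19, -0.12, -0.95 and 0.76. Proliferation genes had a median of -0.64 and no call among 24, and splicing factors one of 0.24 and no call among 34. NF-kB and immediate early genes (26 tested, median -0.44), cholesterol synthesis genes (23, 0.59), lysosomal genes (35, 0.01), MHC class II and costimulation genes (12, -0.24), alternative activation genes (14, 0.34), glycolysis and hypoxia genes (27, -0.22) and unfolded protein response genes (24, -0.35) held no call either. The offset turned the sign of some medians, to 0.01 for NF-kB and immediate early genes, -0.01 for splicing factors, -0.09 for lysosomal genes, 0.14 for MHC class II and costimulation genes, 0.24 for macrophage identity genes and 0.11 for the efferocytosis genes.

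**Figure D3:**
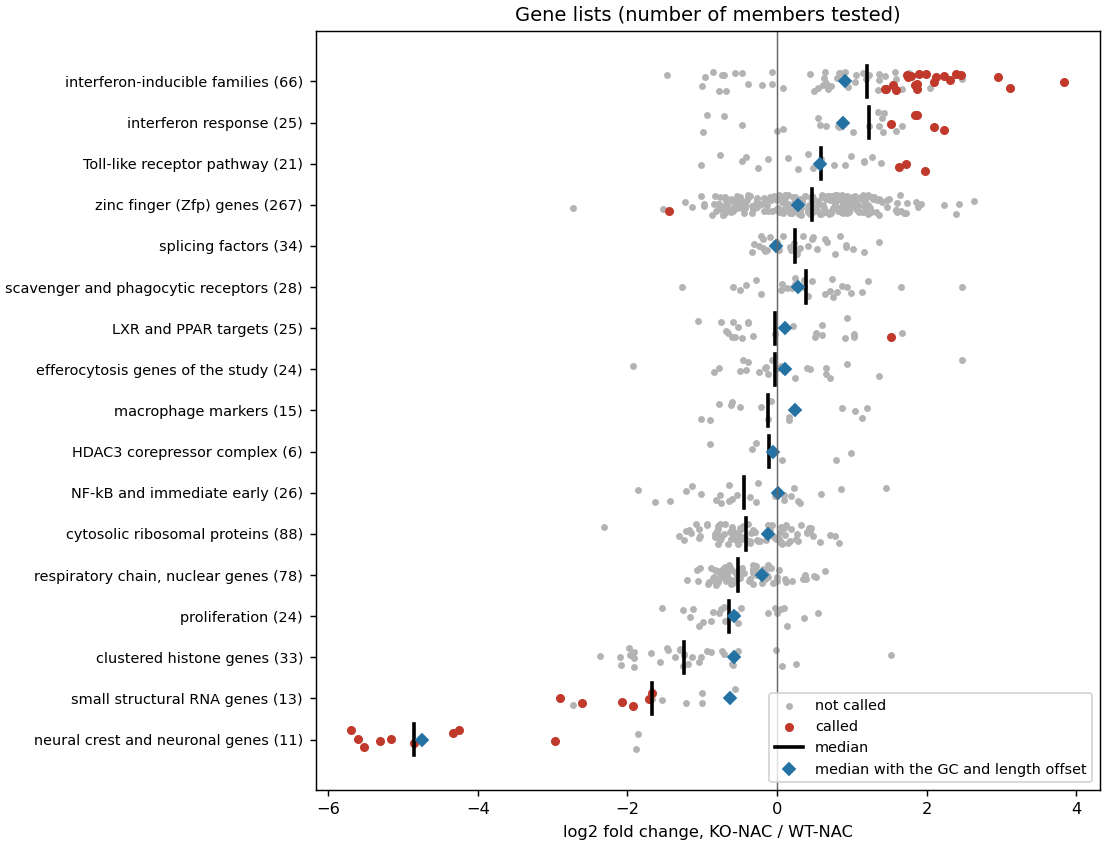
Log2 fold change of KO-NAC over WT-NAC for the tested members of 17 gene lists (points, red where called), with the median of each list (black bar) and its median with the GC and length offset (blue diamond). The interferon lists lie to the right and the neural crest and neuronal genes far to the left, and the medians of the ribosomal protein, respiratory chain and histone lists move toward 0 with the offset.

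Markers of other cells that the cultures could hold were looked at in the same libraries. Of 12 granulocyte markers none was called, and their summed level was 723 to 1300.3 CPM in WT-NAC and 329 to 1061 CPM in KO-NAC. Fibroblast markers summed to 33.2 to 55.9 CPM and 8.71 to 47.8 CPM (9 tested, none called), and B cell markers to 37.5 to 47.5 CPM and 19 to 46.3 CPM (3 tested, none called). For T and NK cell markers 2, for dendritic cell markers 1 and for mast cell and basophil markers 4 were tested. Gata2, a mast cell and basophil marker that also stands in the neural crest list, was the 1 call (lower in KO). Mast cell and basophil markers summed to 11.1 to 12.2 CPM in WT-NAC and 2.00 to 8.52 CPM in KO-NAC, without overlap. None of the 4 tested had a positive log2 fold change (median -0.74). KO-NAC library 1 had the lowest sum of the granulocyte, fibroblast and B cell markers. Of 16 mouse genes of erythroid cells and K562, 5 were tested and none called. Since K562 cells are human and reads were counted on the mouse genome, these genes do not measure directly how much K562 RNA was left. The part of human reads that aligned to mouse genes was not tested. The part of other cells in the genotype difference was not tested.

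The difference between the groups followed base composition. Across genes, log2 fold change and GC content had a Pearson correlation of -0.50. When the genes tested were divided into 5 bins of equal size by GC content, the median log2 fold change was 0.54, 0.46, 0.10, -0.37 and -0.60 from the lowest to the highest GC. The bin with the lowest GC held 27 of the genes called higher and 4 of those called lower, and that with the highest GC 1 and 18. By length the medians went from -0.41 for the bin of the shortest genes to 0.36 for the longest. The mean GC content of the counted genes was 54.5%, 53.3% and 54.3% in WT-NAC libraries 1, 2 and 3 and 52.5%, 53.1% and 52.9% in KO-NAC libraries 1, 2 and 3. WT-NAC library 2 again lay nearest to the KO libraries.

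Interferon genes of both lists, most of them from the list written after the values had been seen, were also set beside other genes of like GC content. In the bin of lowest GC the 32 genes of the interferon lists had a median of 1.44 and the 2349 other genes one of 0.53. In the second bin the values were 1.56 (20 genes) and 0.46, and in the third 0.55 (15 genes) and 0.10. In the last 2 bins the interferon genes were few (7 and 4), with medians of -0.57 and -0.50 beside -0.37 and -0.60 for other genes, so that in the fourth bin the interferon genes had the lower median. With the offset the log2 fold change of Stat2 was 1.93 (adjusted p = 0.105), that of Parp14 1.89 (0.105) and that of Elavl4 -5.71 (0.0524), and edgeR called none of them.

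**Figure D4:**
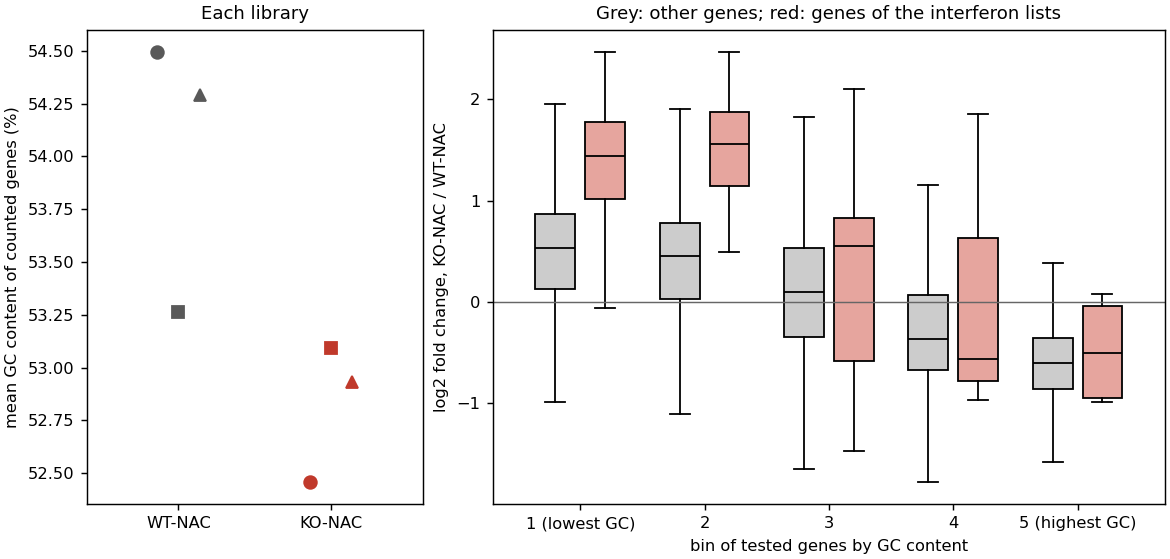
Left, mean GC content (%) of the counted genes in each NAC library, with symbols for replicates 1, 2 and 3; the 3 WT-NAC libraries lie above the 3 KO-NAC libraries. Right, log2 fold change in 5 bins of the genes tested by GC content, from lowest to highest, for genes of the interferon lists (red) and other genes (grey), with boxes from the first to the third quartile, a line at the median and whiskers to the last value within 1.5 box lengths; medians of other genes fall from 0.53 to -0.60.

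The genotype difference between the libraries labelled KO and WT had the opposite direction in untreated macrophages for most of these genes. Since Hdac3 did not separate the genotypes in either treatment, an exchange of genotype labels among the NAC or the untreated libraries cannot be told apart here from a genotype difference that turns with NACs. The RT-PCR and protein measurements that the study made on cultures of both genotypes were not used here. Of the 64 genes called higher with NACs, 63 had the opposite sign when untreated libraries were compared, where 29 were called lower in KO and none higher (calls in that comparison were 11.6% of genes). All 37 of the 39 genes called lower that could be tested there had the opposite sign, and 4 were called higher in KO. For the genes called lower this rested in part on untreated KO library 1, which had the lowest total of the series. Without it 21 of the 37 had the opposite sign (11 called higher in KO) and 16 the same sign as with NACs (5 called lower), among them Lars2, Mir6236, Rpph1, Rmrp, Rgs9, Spry2, Gm4673 and Gm15564, in a fit that called 46.3% of genes. Of the 64 called higher with NACs, 61 then had the opposite sign. These libraries are separate from the NAC libraries. Across 11539 genes the log2 fold changes with NACs and without cells had a Pearson correlation of -0.71, and without that library one of -0.54 across 11827 genes. The untreated difference followed base composition in the opposite direction. In the same bins, from lowest to highest GC, its medians were -1.30, -0.77, 0.10, 0.77 and 0.93, where those with NACs went from 0.54 to -0.60. The part of base composition in the opposite signs was not tested. Tlr7 was at 53.3 ± 14.7 CPM in WT and 11.4 ± 4.19 CPM in KO untreated libraries (SD, n = 3), and at 15.7 ± 6.69 and 51.0 ± 24.4 CPM with NACs. Cat was at 55.8 ± 15.0 and 17.3 ± 7.36 CPM untreated and at 17.7 ± 7.59 and 68.7 ± 18.5 CPM with NACs. For both genes the order of the labelled genotypes was the opposite, with the same limit on the labels. Stat2 was the 1 gene of the 64 that kept its sign, with 37.3 ± 8.76 and 48.0 ± 51.2 CPM untreated, where the KO libraries spread widely.

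A test of the difference between these comparisons was made with an interaction term. It called 4530 of 13005 genes (34.8%), with the genotype difference larger, in the direction of KO, with NACs for 2869 (22.1% of genes tested). That split depended on scaling, and with DESeq2's size factors it was 2284 against 2726. Of the 64 genes called higher with NACs, 61 were also called in this interaction, as were 31 of the 39 called lower (61 and 29 without untreated KO library 1). The NAC libraries are part of both tests, so these counts are not independent. In the interferon response list 10 of 25 members tested were called with a higher and 3 with a lower genotype difference with NACs. In the Toll-like receptor list, 7 and 3 of 21 were called. Over all genes tested 22.1% were called with a higher and 1661 of 13005 with a lower difference. The lower calls of both lists are near that share.

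In the comparison of the genotypes with ACs, 3.75% of genes were called. The 64 genes called higher with NACs had a median log2 fold change of -0.22 with ACs, where none was called higher in KO and 3 were called lower. Of the 39 genes called lower, 36 were tested with ACs, and 6 were called lower there too. Across the same genes as above, the fold changes with NACs and with ACs had a Pearson correlation of 0.14. Ifit2 was at 23.5 ± 6.45 CPM in WT and 11.4 ± 4.13 CPM in KO with ACs, against 11.3 ± 7.38 and 52.0 ± 18.6 CPM with NACs. Abca1 was at 115 ± 43.0 and 118 ± 24 CPM with ACs, against 53.9 ± 19.8 and 151 ± 61.7 CPM with NACs. Cd5l was at 103 ± 74.6 and 388 ± 94.3 CPM with ACs, against 187 ± 86.5 and 117 ± 68.2 CPM with NACs, and the difference between the genotype differences was -2.59 (edgeR adjusted p = 0.124). An interaction term for NACs against ACs called 10 of 13076 genes (0.0765%).

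**Figure D5:**
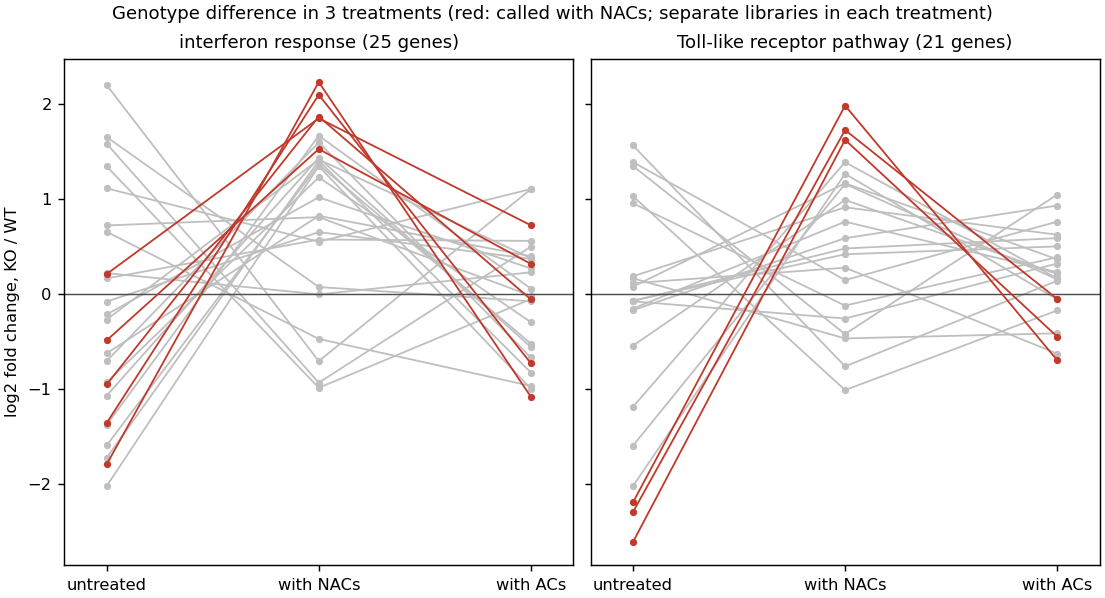
Log2 fold change of KO over WT in untreated libraries, with NACs and with ACs for the members of the interferon response and Toll-like receptor lists, 1 line per gene and red where called with NACs. Called members lie above 0 with NACs, and those of the Toll-like receptor list lie below 0 both untreated and with ACs.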

How the data were processed

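RNA-seq libraries (NEBNext Ultra II, paired-end) of 6 BMDM groups were used, 3 biological replicates each. Per the submitters' processing notes, the tools named were Trimmomatic 0.36, STAR 2.5.2b, featureCounts and Subread 1.5.2, with GRCm38. The strand setting is not given in the sources used here. The deposited values are raw counts per gene, which the authors did not normalize. Gene positions in the files equalled those of GENCODE M21 for 91.4% of genes.

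Counts were tested in R 4.3.3 with edgeR 4.0.16: filterByExpr (minimum count 10, minimum total count 15), TMM scaling, glmQLFit with robust dispersions, glmQLFTest and Benjamini-Hochberg adjustment at 0.05 over all genes tested. CPM of the NAC comparison used its own TMM factors, and levels across treatments and list sums used factors over all 18 libraries. The p-values measure the spread between the animals of these cultures. Replicate pairs differed beyond counting error (chi-squared per degree of freedom 52.7 to 157). A count of 0 allows up to 3 counts, for counting error only. The offset for GC content and length came from a smooth per library (mgcv 1.9.3). Alternatives included DESeq2 1.42.0, limma-voom 3.58.1, other scalings and filters, a replicate block and each library left out. The exact test used log2(CPM + 1). All tests were checked on simulated data, and the results of those checks are not given here.

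Members, gene lists and comparisons were chosen with earlier results of these data known. Genes named were Hdac3, Lyz2 and Cd5l; in each direction the 15 called genes with the largest log2 fold change, groups that did not overlap and a mean of at least 5 CPM; the called members and examples of each list; and, for each interaction, up to 5 called genes per direction with the same minimum. Others are said to be named afterwards. Promoters came from RefSeq on GRCm38.p6. Reads, splicing and strand were not analysed here. Some members of the lists are not reported here by name.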

Additional observations from a re-analysis of the deposited data

Results flagged for a closer look

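Genotype differences that were not the same with NACs as in another treatment, by the interaction term of edgeR's quasi-likelihood test, were picked out for a closer look. Against untreated libraries 4530 genes were called, and against AC libraries 10. The values below are log2 differences between the KO-over-WT difference with NACs and that in the other treatment, and no explanation was tested.

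Against ACs, 6 genes had a larger value with NACs. They were Ifit1bl1 (5.83, adjusted p = 0.0330) and 9930111J21Rik2 (4.49, 0.0295), whose means over the libraries of the test were under 5 CPM, and Gm8995 (4.47 ± 0.68, adjusted p = 0.0114), Ldlrad3 (4.33 ± 0.82, 0.0422), the antiviral gene Samd9l (4.10 ± 0.61, 0.0114) and the caspase inhibitor Xiap (3.40 ± 0.64, 0.0422). The 4 with a smaller value were the integrin gene Itgax (-4.0 ± 0.70, 0.0303), the syndecan gene Sdc1 (-3.31 ± 0.58, 0.0303), the folate receptor gene Folr2 (-3.28 ± 0.60, 0.0330) and the tubulin-binding gene Stmn1 (-2.54 ± 0.44, 0.0303), all by edgeR. Folr2 was at 446 CPM in WT-NAC and 170.0 CPM in KO-NAC, and at 137 and 509 CPM with ACs (means, n = 3). These calls rested on single libraries. None was left without WT-NAC library 1, WT-NAC library 3 or KO-NAC library 3, and 2 were left without KO-NAC library 1 or 2.

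Against untreated libraries, the called genes with the largest values among those with a mean of at least 5 CPM over the libraries of the test were Tma7-ps (7.26 ± 1.58, adjusted p = 0.00669), the caveolin gene Cav1 (5.72 ± 1.18, 0.00374), Ldlrad3 (5.69 ± 0.94, 8.18e-04), the lectin receptor gene Clec4e (5.33 ± 0.94, 0.00158) and the costimulatory gene Cd86 (5.27 ± 0.68, 6.36e-04). Cd86 was at 275 CPM in WT and 23.2 CPM in KO untreated, and at 70.9 and 181 CPM with NACs. The smallest values among called genes above the same minimum belonged to the plasma cell genes Ighg2c (-10.03 ± 2.41, 0.0136) and Jchain (-5.26 ± 1.69, 0.0364), to Gm16907 (-4.34 ± 1.48, 0.0429), to Gm15564 (-4.32 ± 1.47, 0.0425) and to F7 (-4.27 ± 1.01, 0.00565), by edgeR. Without untreated KO library 1 the value of Gm15564 was -2.44 and that of Gm16907 -2.35 (adjusted p = 0.0392 and 0.0442), Gm15564 was then lower in KO in untreated libraries as with NACs, and Jchain no longer passed (adjusted p = 0.0702). Ighg2c was at 2.61, 16.7 and 321 CPM in WT-NAC libraries 1, 2 and 3 and at 0.144, 1.94 and 0.673 CPM in KO-NAC libraries 1, 2 and 3.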

How the results depend on the processing

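The count of 103 genes was 16 with library totals alone, 441 with DESeq2's Wald test, 177 with limma-voom, 575 without a filter, 0 with the correction for GC content and length (the offset), 0 with all 18 libraries in one fit, and 0 to 3121 when each NAC library was left out. With the offset and the replicate block together it was 5, all lower in KO. The block alone gave 217 calls. Same-numbered libraries of the genotypes showed no sign of pairing (correlations of deviations -0.0923, -0.221 and 0.0651), nor did those of NACs and the other treatments within a genotype (-0.330 to 0.140), which does not show that none exists. The cause of these shifts was not tested. DESeq2's size factors gave 152 calls, and of the 103 genes 102 were among them.

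The 10 calls of the interaction with ACs became 38 with DESeq2's size factors, 759 with its Wald test, 537 without a filter, 152 with the replicate block, 273 with the offset, and 0 to 782 when a NAC library was left out. For the interaction with untreated libraries the offset left 1600 of 4530, leaving out a NAC library gave 3052 to 5370, and leaving out KO untreated library 1, which had the lowest total of the series, gave 6297. The offset fits of the interactions and the fits without untreated KO library 1 were chosen after seeing the data. Hdac3 changed sign with library totals alone (0.0493) and within its leave-one-out range of -0.86 to 0.17. Gm24187 changed sign with the offset (0.202) and with the offset and block (0.145). No other of the 67 genes named by rule changed sign in the alternatives run. Of 26 other genes whose values are given and did not pass, 6 changed sign in at least 1 alternative (Axl, Mertk, Myd88, Ncor1, Srebf1 and Tnf, in 1 to 5 each). With 3 libraries per group and 1 WT library unlike the other two, single genes at low counts are the least certain.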
